A study of Homo sapiens with 3 samples.

Results

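Back-splice junctions of histone cluster 1, a group of histone genes on human chromosome 6, were followed in 3 pancreatic cell lines. They were the junctions with both ends in the 1.9 Mb of chromosome 6 (hg19) that begin at 26 Mb and with a span under 1000 bases. This gave 13 distinct junctions of 17156 in the series: 4 of 3370, 5 of 13341 and 4 of 3764 in HPDE, PANC-1 and SW1990. HIST1H1C, HIST1H4B and HIST1H2BJ were chosen by their high junction RPM in these libraries, so levels here are a description and support no test. Values are RPM, back-splice reads per M reads of the authors' library total, in which 1 read was worth 0.0240, 0.0273 and 0.0208 RPM in HPDE, PANC-1 and SW1990. An RPM value counts reads over 1 junction and does not depend on gene length. It is not a level of the linear histone mRNA.

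Histone cluster 1 is the largest human cluster of replication-dependent histone genes and holds genes for the linker histone H1 and for the core histones H2A, H2B, H3 and H4. Their transcripts are made mainly in S phase to package newly copied DNA, are usually unspliced, and end in a short stem-loop bound by SLBP (stem-loop binding protein) in place of a poly(A) tail. A circular RNA (circRNA) is usually recognised by a back-splice junction, where a downstream splice donor is joined to an upstream acceptor.

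The series lists junctions in 1 library each of HPDE, cells of pancreatic duct epithelium that are not from a tumour, and of the pancreatic ductal adenocarcinoma lines SW1990 and PANC-1. HPDE grew in serum-free keratinocyte medium with growth factor and pituitary extract, whereas both tumour lines grew in DMEM with fetal bovine serum, so the line's origin and its medium cannot be told apart. No line had a replicate. Every interval below is a 95% interval that covers counting error only, and reads without molecular identifiers are not independent molecules. Each ratio compares libraries and was not tested between conditions.

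Only the SW1990 list names host genes. It assigned its 4 short-span junctions to HIST1H4B (core histone H4), HIST1H1C and HIST1H1B (both linker histones) and HIST1H2BJ (core histone H2B). Overlapping junctions were joined into loci, which gave 7 loci. The junctions of HPDE and PANC-1 fell at the HIST1H1C locus and at 3 loci that no SW1990 junction touched; these are called unnamed A, at chr6:26188987-26189229, unnamed B, at chr6:26216521-26216832, and unnamed C, at chr6:26234517-26234738. All 3 lie between the HIST1H1C and HIST1H2BJ junctions. In the order of GENCODE release 29 (GRCh38), 23 histone coding genes stand between those genes: 3 for H1, 3 for H2A, 7 for H2B, 4 for H3 and 6 for H4. An hg19 annotation was not used here, so the 3 loci, which hold 5 of the 13 junctions, keep no gene name and belong to the histone window by position alone.

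Transcript sequences of the named hosts are shown for the features of the annotated genes, and no junction read was examined. The sequences are from GENCODE release 29, whose genes lie on GRCh38 chromosome 6, and are written in the sense direction. In the stem-loop element of the named hosts, capitals mark the 16 bases that match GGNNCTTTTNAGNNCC. HIST1H3H, a core histone H3 gene whose junction is described further on, is shown beside HIST1H4B:
HIST1H4B: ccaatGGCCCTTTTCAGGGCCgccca
HIST1H3H: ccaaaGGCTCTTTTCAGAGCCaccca
Searched on the sense strand, the motif was found in a transcript of 60 of 19922 protein-coding genes (0.301%), of which 31 were histone genes. It was found in 19 of the 55 coding genes of histone cluster 1 and, among the 4 short-span hosts, in HIST1H4B. The transcript models of HIST1H1C, HIST1H1B and HIST1H2BJ run only from start to stop codon, so they do not cover the place where the element would lie.

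Histone genes of a family resemble each other to different degrees, which bears on where a read can be placed. The first 60 coding bases of 3 hosts are shown with those of the HIST1 gene of the same family that was most alike over the whole coding sequence. Capitals mark the positions at which a host and its relative differ:
HIST1H1C: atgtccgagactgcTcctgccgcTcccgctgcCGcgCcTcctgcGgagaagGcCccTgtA
HIST1H1E: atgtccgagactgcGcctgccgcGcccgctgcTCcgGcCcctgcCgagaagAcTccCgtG
HIST1H4B: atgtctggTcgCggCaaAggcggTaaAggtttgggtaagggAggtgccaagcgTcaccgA
HIST1H4A: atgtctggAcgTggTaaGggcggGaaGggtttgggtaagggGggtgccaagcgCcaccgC
HIST1H2BJ: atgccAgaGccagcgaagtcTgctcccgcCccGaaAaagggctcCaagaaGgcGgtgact
HIST1H2BK: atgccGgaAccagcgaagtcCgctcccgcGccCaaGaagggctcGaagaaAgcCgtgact
HIST1H2BJ was the least distinct of the 4 short-span hosts: it was identical to HIST1H2BK at 92.1% of coding positions, with a shared run of 86 bases, and 38.7% of its 25-base words also occurred in transcripts of other genes, 24 of them histone genes. The closest relatives were identical at 84.9% of aligned coding positions for HIST1H4B, 77.6% for HIST1H1C and 75.9% for HIST1H1B. For HIST1H4B 7.73% of the words were shared, for HIST1H1B 3.65% and for HIST1H1C 2.91%. Reads assigned to HIST1H2BJ are therefore uncertain between genes, and how the authors treated reads with several matches is not given in the sources used here.

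The junctions of the histone window carried between 6.71 and 14.4% of the back-splice reads outside a few very abundant loci. Junctions of RPPH1 (the RNA of RNase P), the ribosomal RNA scaffold and the mitochondrial genome were set aside for this comparison. Of the remaining reads they held 6.71%, 10.4% and 14.4% in HPDE, PANC-1 and SW1990. The Clopper-Pearson intervals were 6.61 to 6.81%, 10.3 to 10.5% and 14.2 to 14.5%, in the same order. Loci with no gene name carried 50.7% of these window reads in HPDE (8987 of 17724), 73.5% in PANC-1 (30320 of 41245) and none in SW1990. Over all back-splice reads the shares were 1.26, 2.19 and 2.27%. Among junctions spanning under 1000 bases, the window junctions took 15.7, 31.7 and 25% of the reads of HPDE, PANC-1 and SW1990, from 0.464, 0.249 and 0.40% of the junctions.

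The cluster gave no weakly covered short-span junction in any of the 3 lists. Its 13 junctions ranged from 1522 to 20821 reads, while the median of all junctions was 13, 6 and 10 reads in HPDE, PANC-1 and SW1990. Ranked by reads outside the set-aside loci, 10 of the 13 stood among the first 10 of their library: ranks 4 and 8 in HPDE, ranks 1, 4, 6 and 10 in PANC-1, and ranks 1, 2, 8 and 9 in SW1990. The other 3 stood at ranks 11 and 21 in HPDE and 11 in PANC-1. Of the other short-span junctions, 10 of 858, 13 of 2003 and 18 of 997 in HPDE, PANC-1 and SW1990 reached 1000 reads.

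**Figure D1:**
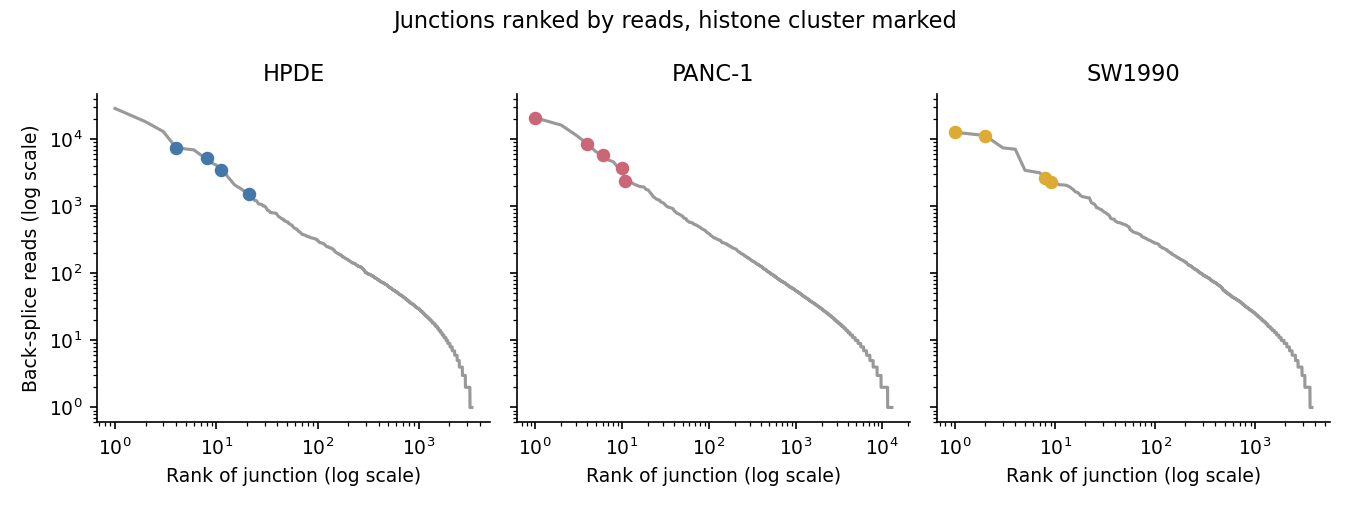
Back-splice reads of each junction (vertical axis, log scale) against its rank in its library (horizontal axis, log scale), outside the RPPH1, ribosomal RNA and mitochondrial loci. The grey line is all junctions and the coloured points are the junctions of the histone window, which sit between rank 1 and rank 21 in the 3 libraries.

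The junctions were also short. Spans ran from 137 to 320 bases with a median of 230. The HPDE median was 207.5 bases against 425 for its other junctions under 1000 bases. The PANC-1 median was 230 against 438 and the SW1990 median 268.5 against 399. The transcript models of the 4 named hosts were 381 to 681 bases long, so a junction within a model could not reach 1000 bases. Short spans were thus partly set by the choice of family and are a description. The members did not approach the 1000-base limit: the longest inside it were HIST1H4B at 320 bases and HIST1H2BJ at 306 bases, with 12669 and 2607 reads. The nearest outside it were an HPDE junction of 1086 bases at chr6:27094094-27095180 with 18 reads (0.432 RPM) and a PANC-1 junction of 2543 bases at chr6:26426470-26429013 with 6 reads (0.164 RPM), neither with a host name.

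HIST1H1C, which encodes a linker histone that binds DNA between nucleosomes, was the locus with reads in all 3 lines. On the authors' scale its summed levels lay within 2-fold of each other. The locus held 209.5 RPM in HPDE (205 to 214), 298 RPM in PANC-1 (292 to 304) and 234 RPM in SW1990 (230 to 239). PANC-1 stood highest and HPDE lowest, with a PANC-1 sum 1.42-fold that of HPDE (1.38 to 1.46). The SW1990 sum was 1.12-fold that of HPDE (1.09 to 1.15), and the PANC-1 sum was 1.27-fold that of SW1990 (1.24 to 1.30). The order itself depended on the scaling. On the authors' scale the log2 ratio was 0.51 for PANC-1 to HPDE and -0.35 for SW1990 to PANC-1. Per total back-splice read these were -0.10 and 0.61. Per back-splice read outside the set-aside loci they were -0.26 and 1.02, the latter past 2-fold.

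The HIST1H1C sum was made of 5 different junctions, and no coordinate pair occurred in more than 1 library. HPDE had chr6:26056129-26056266 with 5244 reads (126 RPM, 122 to 129) and chr6:26056054-26056248 with 3493 reads (83.8 RPM, 81.0 to 86.6). PANC-1 had chr6:26056069-26056299 with 8537 reads (233 RPM, 228 to 238) and chr6:26056044-26056206 with 2388 reads (65.1 RPM, 62.5 to 67.8). SW1990 had a single junction, chr6:26056036-26056209, with 11287 reads (234 RPM, 230 to 239). HPDE and PANC-1 thus split the locus between a major and a minor junction, and SW1990 did not.

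All 5 intervals lay within 263 bases and shared a core of 77 bases, chr6:26056129-26056206. There were 5 distinct starts spread over 93 bases and 5 distinct ends, also spread over 93 bases. The closest pair from different lines was the SW1990 junction and the minor PANC-1 junction, whose starts were 8 and whose ends 3 bases apart. The HIST1H1C transcript model is 642 bases long, and the SW1990 junction spanned 173 bases, 26.9% of it.

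**Figure D2:**
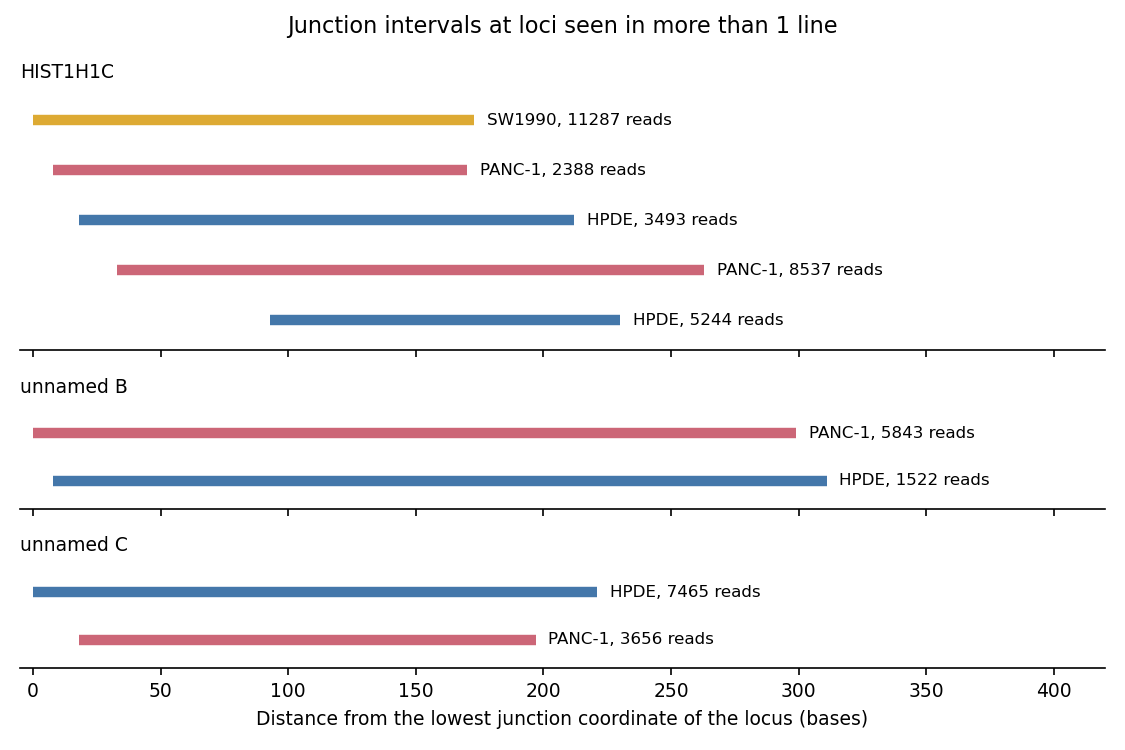
Junction intervals at the 3 loci with reads in more than 1 line, drawn to scale as the distance in bases from the lowest junction coordinate of each locus. Each bar is 1 junction of 1 library with its reads; the bars overlap, but none has the same start or the same end as another at its locus.

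At the unnamed loci B and C, HPDE and PANC-1 again used neighbouring but different junctions. Locus B had chr6:26216529-26216832 in HPDE with 1522 reads (36.5 RPM, 34.7 to 38.4) and chr6:26216521-26216820 in PANC-1 with 5843 reads (159 RPM, 155 to 163). PANC-1 was the higher at locus B by 4.37-fold (4.13 to 4.62), with starts 8 and ends 12 bases apart. Locus C went the other way: chr6:26234517-26234738 had 7465 reads in HPDE (179 RPM, 175 to 183) and chr6:26234535-26234714 had 3656 reads in PANC-1 (99.7 RPM, 96.5 to 103). HPDE was higher at locus C by 1.80-fold (1.73 to 1.87), and the PANC-1 interval lay wholly inside that of HPDE. These ratios moved with the scaling: per total back-splice read locus B was 2.87-fold higher in PANC-1 and locus C 2.73-fold higher in HPDE. SW1990 had no read at either locus, which allows up to 0.0623 RPM at a limit of 3 reads.

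The most abundant junction of the histone window was listed in PANC-1 alone and has no gene name. Unnamed locus A, chr6:26188987-26189229, held 20821 PANC-1 reads (568 RPM, 560 to 576), which was 50.5% of that line's reads in the window. It had 0 reads in HPDE and SW1990, which allows up to 0.0719 and 0.0623 RPM. Against a limit of 3 reads, PANC-1 was at least 7893-fold higher than HPDE and at least 9112-fold higher than SW1990. Such bounds hold only if the 2 lists lack the junction because of its read number, and what the circRNA caller filtered is not given in the sources used here.

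SW1990 alone listed the HIST1H4B, HIST1H2BJ and HIST1H1B junctions. HIST1H4B, one of several genes for the core histone H4, was the highest of them at chr6:26027158-26027478 with 12669 reads (263 RPM, 259 to 268). HIST1H2BJ, a gene for H2B that pairs with H2A in the nucleosome, had chr6:27100121-27100427 with 2607 reads (54.2 RPM, 52.1 to 56.3). HIST1H1B, another linker histone, had chr6:27834929-27835160 with 2306 reads (47.9 RPM, 46.0 to 49.9). In HPDE and PANC-1 each of these loci was at 0 reads, which allows up to 0.0719 and 0.0818 RPM. The SW1990 values were at least 3658-, 753- and 666-fold higher than in HPDE and at least 3217-, 662- and 585-fold higher than in PANC-1, in the order HIST1H4B, HIST1H2BJ and HIST1H1B. These bounds hold only under the condition given for locus A, that the lists lack the junctions because of read number. For HIST1H2BJ the reads are also uncertain between genes. Relative to its transcript model, the HIST1H4B junction spanned 320 of 438 bases and the HIST1H1B junction 231 of 681 bases.

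**Figure D3:**
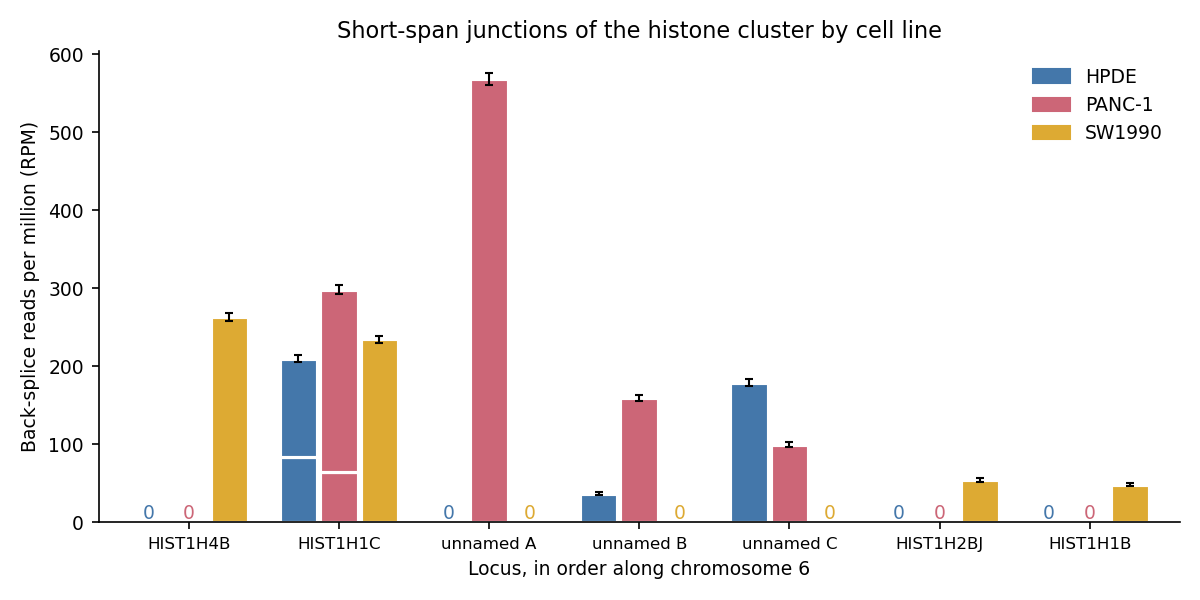
RPM of the histone window junctions (vertical axis, from 0) at each locus in chromosomal order for HPDE, PANC-1 and SW1990. Stacked segments are different junctions of 1 library, error bars are 95% Poisson intervals of the locus sum, and a coloured 0 marks a library with no read; only HIST1H1C has bars in all 3 lines.

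One further histone junction lay outside the span limit. HIST1H3H in SW1990, at chr6:27776264-27782269, had 7414 reads (154 RPM, 151 to 158), fewer than HIST1H4B and HIST1H1C and more than any other SW1990 junction outside the set-aside loci. Its span of 6005 bases was longer than the HIST1H3H transcript model of 1237 bases, so the interval reached past the gene it was named for. No counterpart was listed in HPDE or PANC-1.

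Summed over the short-span junctions, unnamed loci included, the histone window reached 425 RPM in HPDE (17724 reads), 1125 RPM in PANC-1 (41245 reads) and 599.7 RPM in SW1990 (28869 reads). PANC-1 was 2.65-fold higher than HPDE (2.60 to 2.69) and 1.88-fold higher than SW1990 (1.85 to 1.90), and SW1990 was 1.41-fold higher than HPDE (1.38 to 1.44). HPDE was lowest under each of the 3 scalings used. The order of the tumour lines was not kept: the log2 ratio of SW1990 to PANC-1 was -0.91 on the authors' scale, 0.052 per total back-splice read, and 0.46 per back-splice read outside the set-aside loci. Adding the longer junctions of the window, HIST1H3H among them, took the ratio of SW1990 to HPDE from 0.50 to 0.82 on the log2 scale.

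**Figure D4:**
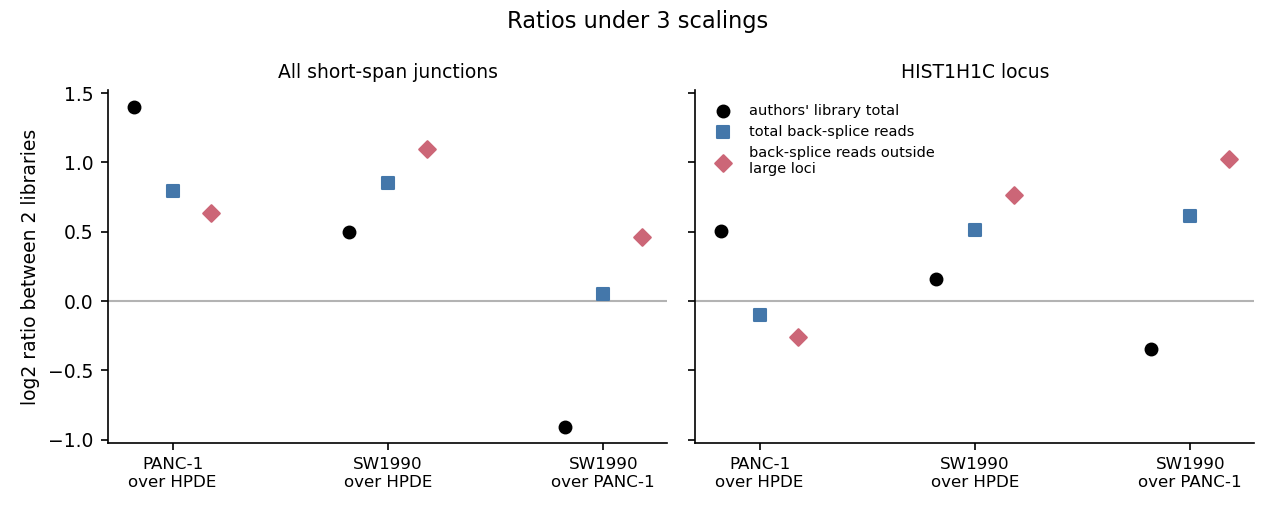
The log2 ratio between pairs of libraries (vertical axis) for all short-span junctions of the histone window (left) and for the HIST1H1C locus (right) under 3 scalings, marked by shape. Points on both sides of 0 in 1 column mean that the direction depends on the scaling, as for SW1990 over PANC-1 in both panels and PANC-1 over HPDE at HIST1H1C.

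Compared junction by junction at a fold of at least 2 and at least 10 reads over the 2 libraries, every junction of the window counted as different, because none was shared. Against HPDE, 5 PANC-1 junctions counted as higher and 4 as lower, where 93.1% of all 6701 junctions compared passed this fold (72.0% higher, 21.1% lower). For SW1990 against HPDE the counts were 4 and 4, with 89.7% of 3541 junctions passing (44.0% higher, 45.7% lower). For SW1990 against PANC-1 they were 4 and 5, with 91.5% of 6687 passing (19.5% higher, 72.0% lower). Over all junctions, an exact binomial test on the reads of each pair of libraries, with the same fold, called 91.8, 87.9 and 89.6%. Nothing is read from the window's counts. Its junctions were taken by position and span, with earlier results of these data known. None was shared and all were abundant, so each had to pass the fold. By locus, 2 of 4 loci of the window passed the fold in PANC-1 against HPDE, 5 of 6 in SW1990 against HPDE and 6 of 7 in SW1990 against PANC-1, where 90.1, 88.6 and 87.6% of all short-span loci did. Per total back-splice read the first count was 3 of 4, with locus C past the fold. The share over all short-span loci is not given for that scaling, so nothing is read from this count.

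Exact sharing was uncommon among other short-span junctions: of 3123 at any depth, 565 (18.1%) had the same coordinates in a second library. Of 40 other short-span junctions with at least 1000 reads in some library, 6 (15.0%) had the same coordinates in a second library, against 0 of the 13 window junctions. By overlap, 3 of the 7 window loci were in more than 1 library, against 11 of 36 other loci of that depth (30.6%). The difference was not tested.

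Most genes of histone cluster 1 have no intron: in the annotation 46 of the 55 coding genes had only single-exon transcripts. A single-exon host was thus largely set by the choice of the family, and the following counts are a description. Of 2416 SW1990 host symbols, 2308 (95.5%) were found in GENCODE release 29, and 6 of those (0.260%) had only single-exon transcripts. Histone cluster 1 supplied 4 of these 6: the short-span hosts HIST1H4B, HIST1H1C and HIST1H1B, and HIST1H3H, whose junction is over the span limit. The others were SFN, a 14-3-3 protein of epithelial cells, with 351 reads, and CENPB, which binds centromeric DNA, with 268 reads. HIST1H2BJ had models of up to 2 exons. The median of the 2302 hosts with a multi-exon transcript was 17 reads.

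Other genes of histone supply were counted among the named hosts. A junction took a name only where an SW1990 junction gives the host, which named 98.2% of SW1990 junctions outside the set-aside loci, but 44.9% of those in HPDE and 36.6% in PANC-1. A 0 or a lower sum in HPDE or PANC-1 can therefore be a junction without a name. Of all 19922 protein-coding genes, 2284 (11.5%) were SW1990 hosts. SW1990 listed no host from the histone clusters outside cluster 1. Of 12 replacement histone genes, whose products can also be deposited outside S phase, H2AFY alone had reads: 0 in HPDE, 90 in PANC-1 (2.45 RPM) and 181 in SW1990 (3.76 RPM). H2AFY makes macroH2A, from a gene with introns.

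Of 26 genes listed for histone mRNA processing and the histone locus body, 4 had junction reads. Their summed levels were 1.61, 1.55 and 3.53 RPM in HPDE, PANC-1 and SW1990. SYMPK, a scaffold of the 3′-end cleavage complex, had 30, 31 and 114 reads in that order. The other 3 are below the 50 reads set for naming and were named after their values were seen: FIP1L1 with 37, 26 and 13 reads, and NPAT (19 reads) and UPF1 (24 reads) in SW1990 only. SLBP, which binds the stem-loop, had no named junction in any line. Of 26 histone chaperone genes 6 had reads, summing to 1.94, 3.05 and 1.64 RPM, and none reached 50 reads in a library.

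S phase and replication genes summed to 2.47, 9.0 and 16.5 RPM in HPDE, PANC-1 and SW1990, from 14 of 29 genes. MCM5, a subunit of the replicative helicase, had 0, 188 and 161 reads in HPDE, PANC-1 and SW1990. POLD1, a replicative polymerase, had 59, 42 and 187 reads, and the ligase LIG1 had 28, 0 and 178. CDT1, which licenses origins, had 149 reads in SW1990 and no named junction elsewhere, and E2F1, a transcription factor of S phase entry, had 0, 31 and 64. In PANC-1 against HPDE 5 of 8 genes with enough reads were higher and 2 lower (median log2 2.58), beside 77.9% past the fold over 1585 hosts (66.4% higher, 11.4% lower, median 2.06). In SW1990 against HPDE 8 of 9 were higher and 1 lower (median 1.79), beside 73.3% past the fold over 1788 hosts (58.8% higher, 14.4% lower, median 1.67). In SW1990 against PANC-1 5 of 10 were higher and 2 lower (median 1.00), beside 67.2% past the fold over 2061 hosts (27.5% higher, 39.7% lower, median -0.49).

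Among 761 other hosts with at least 100 reads, the split of RPM over the 3 lines was most like that of HIST1H1C in PHF20, STAT3 and EHD2. HIST1H1C divided as 28.2%, 40.2% and 31.6% in HPDE, PANC-1 and SW1990, and PHF20 as 27.6, 39.9 and 32.6%, a summed absolute difference of 1.90 percentage points over 3 libraries. Their levels were far lower, with 1.06, 1.53 and 1.25 RPM for PHF20. HIST1H4B and HIST1H2BJ, found in SW1990 only, shared that pattern with 90 of the 761 hosts. All host names came from SW1990 junctions, so the naming favours such a pattern and the count is a description.

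The cell line labels were set against marker genes among the named hosts. Of 11 ductal epithelial markers, 6 had reads in SW1990 (740 in all, led by KRT7 with 520 and GRHL2 with 90), 2 in HPDE (26 reads) and none in PANC-1, where most junctions carry no name, so the lines cannot be compared on these markers. KRT8, KRT18, KRT19, SOX9 and CFTR had no named host in any line. The acinar, immune, endothelial and erythroid markers had none either. Of 6 mesenchymal markers only ZEB1 had a named host, with 4, 127 and 36 reads in HPDE, PANC-1 and SW1990. VIM, FN1, CDH2, SPARC and COL1A1 had none, and the same limit of naming applies.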

How the data were processed

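Per the labels' protocols, TRIzol was used for RNA extraction and a NEBNext Ultra kit for library construction; whether poly(A) RNA was selected or ribosomal or linear RNA removed is not given in the sources used here. Per the submitters' processing notes, TopHat2, TopHat and HTSeq were used on hg19; the circRNA caller, with its filters, is not given in the sources used here. The authors deposited RPM for each junction, and for SW1990 also the count of back-splice reads and a host symbol. The deposited coordinates are printed as given, and whether they count from 0 or 1 is not stated. The totals behind the RPM were 41.7, 36.7 and 48.1 M reads for HPDE, PANC-1 and SW1990, with 1408352, 1885511 and 1273083 back-splice reads. In each library 100% of RPM values were whole multiples of 1 read within 0.05 reads, and the recovered reads equalled the deposited count for 3764 of 3764 SW1990 junctions. In the tables of HPDE and PANC-1, 1 emptied line each was not analysed here.

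Members and gene lists were chosen with earlier results of these data known. Junctions were matched by identical coordinates, a library at 0 was set to 3 reads for folds, and ratios have exact conditional binomial intervals. A junction of HPDE or PANC-1 took an SW1990 host name if it overlapped the interval of 1 host only; 61 SW1990 junctions had no symbol and 14 a date in its place. Every member of at least 100 reads was named, as were list hosts of at least 50 reads in a library. The ribosomal protein list is not reported here. Code was tested on simulated data. As an alternative, an exact binomial test on recovered reads (two-sided, Benjamini-Hochberg, adjusted p under 0.05, fold of at least 2) compares 2 libraries, not conditions: it called 6149 of 6701, 3111 of 3541 and 5990 of 6687 junctions for PANC-1 against HPDE, SW1990 against HPDE and SW1990 against PANC-1. Python 3.11.15, numpy 2.4.6, pandas 2.3.3, scipy 1.17.1 and matplotlib 3.10.9 were used.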

Additional observations from a re-analysis of the deposited data

How the results depend on the processing

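The log2 ratio of summed histone window RPM was 1.40 for PANC-1 over HPDE, 0.50 for SW1990 over HPDE and -0.91 for SW1990 over PANC-1. Scaled by total back-splice reads these were 0.80, 0.85 and 0.052, and scaled by reads outside RPPH1, ribosomal RNA and mitochondrial loci 0.64, 1.10 and 0.46, so SW1990 over PANC-1 changed sign. Without the most abundant junction of each library they were 1.18, 0.45 and -0.73. With junctions of any span, SW1990 over HPDE was 0.82 and SW1990 over PANC-1 was -0.58. For HIST1H1C the main values were 0.51, 0.16 and -0.35; the scalings, added after seeing the data, gave -0.10, 0.52 and 0.61 (total) and -0.26, 0.76 and 1.02 (outside those loci). These scalings were also added after seeing the data for single loci. With them, 3 of 4 loci passed a fold of 2 in PANC-1 against HPDE in place of 2. Scaled outside those loci, 7 of 7 passed in SW1990 against PANC-1 in place of 6. On the authors' scale 90.1 and 87.6% of all short-span loci passed in those comparisons. The shares under the other scalings are not given, so the counts under them have no like share beside them and nothing is read from them. Of the 13 junctions, 0 were in more than 1 library with identical ends, 2 with ends within 10 bases, 9 with a reciprocal overlap of at least 50%, and 9 with any overlap, an alternative added after seeing the data. The share of back-splice reads was 6.71, 10.4 and 14.4% outside the set-aside loci against 1.26, 2.19 and 2.27% of all reads. Read minimums of 10 or 100 and a span limit of 500 bases left the sums as they were. The numbers of junctions past a fold of 2 (9, 8 and 9) were the same under other read minimums, pseudocounts and scalings. With ends matched within 10 bases the last was 8, as an SW1990 and a PANC-1 junction of HIST1H1C were then compared as 1 pair. That pair, at 234 RPM in SW1990 and 65.1 RPM in PANC-1, also differed by more than 2-fold. No paired analysis was possible because each line had 1 library, and no library could be left out.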
